A study of Rattus norvegicus with 18 samples.

Results

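Regions of 1000 bp with a medium density of CpG sites and almost no DNA methylation were described in rat testis. Reduced representation bisulfite sequencing (RRBS) cuts DNA with the enzyme MspI, whose site is CCGG, and then reads methylated cytosines as C and unmethylated ones as T. There were 6 libraries of a chronic sleep restriction (CSR) group and 6 of a control group, all from testes of Wistar rats aged 8 weeks, with fragments selected between 200 and 450 bp. The groups share strain, age and tissue, no genotype or drug is given, and the duration of the restriction is not given in the sources used here. Whether the 12 libraries stem from 12 animals is not stated in the labels, and every p-value below reflects only how far these libraries spread, which could be technical. CSR libraries 2 and 3 had the same level class at 97.8% of 974 CpGs where levels sit near 0, 50 or 100% as genotypes would set them, against 37.2 to 51.1% in the other 65 pairs of libraries; only 1 of these CpGs lies in a member. These libraries may share an animal, in which case CSR rests on 5 animals and not 6; each SD and p below counts them apart unless stated. With both summed as 1 library, again no member was called. Every direction rests on the labels, because the file codes of the methylation libraries use the group letter the other way round from those of the RNA libraries. Testis is a mixture of cell types, and a changed share of a cell type and a changed level within its cells cannot be told apart. In the separate RNA tables of 3 CSR and 3 control libraries, 37 listed spermatid and sperm genes summed to 20941, 24137 and 21947 FPKM in CSR testes and to 13441, 15305 and 22039 FPKM in control testes. Of these, 11 were higher in all CSR than in all control libraries, 1 was lower in all, and 25 overlapped, where 8.20% of all 6679 genes in that table were higher and 13.5% lower in that way. The protamine gene Prm1 (sperm chromatin) stood at 3029, 2572 and 968 FPKM in CSR and at 0.0934, 0.0981 and 877 FPKM in control, and Izumo1 (sperm and egg fusion) at 26.8, 28.1 and 32.2 FPKM in CSR and at 1.06, 0.482 and 30.7 FPKM in control. In both genes the RNA libraries control 1 and 2 stood far below the other 4, among the widest gaps of the list. The RNA table holds a selected set of transcripts, summed here per gene, so a low value may not be that of the whole gene. Spata6 went the other way, with 254 and 272 FPKM in control 1 and 2 and 187 to 197 FPKM in the rest. Gsg1 hardly differed, with 1195 and 1265 FPKM in control 1 and 2 and 1195 to 1288 FPKM in the rest. The sums rest largely on genes of high FPKM such as Oaz3, Tnp1, Tnp2 and Prm1. The labels do not tie these libraries to the methylation libraries, and what part the cell mixture has in the methylation levels was not tested.

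The members are 6198 tiles. The rule took the tiles of chromosomes 1 to 20 with 20 to 49 CpGs listed in any library, with at least 3 CpGs read at least 10 times in all 12 libraries, and with a mean level under 10% over the 6 control libraries. They are 43.6% of the 14223 tested tiles of that density and 6.64% of the 93364 tested tiles on these chromosomes. The remaining medium-density tiles comprised 4636 tiles between 10 and 90% and 3389 tiles at 90% or more in control. The control levels therefore chose the members, and their lowness in control is the rule and not a result. The CSR libraries were not used by the rule, and in them the name held: 6064 members (97.8%) also averaged under 10%.

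In mammals most CpGs are methylated, and methylated CpGs mutate readily, so that CpGs are rare in most of the genome. CpG islands are the exception: stretches rich in CpGs that stay free of methylation, many of them at the start of genes that all cells use. Proteins with a CXXC domain bind such unmethylated CpGs, and the histone mark H3K4me3 found there hinders the enzymes that add methylation. Regions of intermediate CpG content are less uniform, and promoters of some germ line genes are of this kind and are methylated in somatic tissues.

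The sequences show what such a tile holds. Gene names are absent from the methylation tables, so RefSeq promoters of the GRCr8 assembly were placed on the listed CpGs by the spacing of their CpGs. From each of 4 gene lists, the promoter in a member with the most measured CpGs is printed. The Dazl promoter, from a tile in the same range of density outside the members, is given as a contrast. Each run is the 250 bases before the gene start, 5′ to 3′ on the gene's strand, and capitals mark CpGs read at least 10 times in all 12 libraries.
Psma2, GRCr8 chr17:55260442-55260691, minus strand: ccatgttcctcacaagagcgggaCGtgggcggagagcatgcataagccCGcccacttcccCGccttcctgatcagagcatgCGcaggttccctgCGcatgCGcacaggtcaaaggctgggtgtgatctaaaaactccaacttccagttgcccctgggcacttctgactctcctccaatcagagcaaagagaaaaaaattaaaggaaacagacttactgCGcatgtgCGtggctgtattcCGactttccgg
Rpl37a, GRCr8 chr9:81747841-81748090, plus strand: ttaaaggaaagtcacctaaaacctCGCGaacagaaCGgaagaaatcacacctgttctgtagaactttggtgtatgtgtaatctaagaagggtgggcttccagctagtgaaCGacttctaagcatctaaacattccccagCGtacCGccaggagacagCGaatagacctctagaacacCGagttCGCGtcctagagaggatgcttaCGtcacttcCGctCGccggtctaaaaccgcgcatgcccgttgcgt
Cox4i1, GRCr8 chr19:65630133-65630382, plus strand: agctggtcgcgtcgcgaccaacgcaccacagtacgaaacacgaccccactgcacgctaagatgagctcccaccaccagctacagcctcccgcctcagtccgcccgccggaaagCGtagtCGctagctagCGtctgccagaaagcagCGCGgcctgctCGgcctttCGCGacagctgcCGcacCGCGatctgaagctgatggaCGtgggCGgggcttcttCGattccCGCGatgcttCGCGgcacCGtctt
Cabyr, GRCr8 chr18:4166617-4166866, plus strand: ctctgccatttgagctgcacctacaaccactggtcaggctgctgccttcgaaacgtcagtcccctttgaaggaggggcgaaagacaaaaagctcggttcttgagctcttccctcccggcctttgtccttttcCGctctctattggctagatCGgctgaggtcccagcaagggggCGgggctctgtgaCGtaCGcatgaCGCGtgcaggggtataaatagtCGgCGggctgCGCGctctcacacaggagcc
Dazl, GRCr8 chr9:18193113-18193362, plus strand: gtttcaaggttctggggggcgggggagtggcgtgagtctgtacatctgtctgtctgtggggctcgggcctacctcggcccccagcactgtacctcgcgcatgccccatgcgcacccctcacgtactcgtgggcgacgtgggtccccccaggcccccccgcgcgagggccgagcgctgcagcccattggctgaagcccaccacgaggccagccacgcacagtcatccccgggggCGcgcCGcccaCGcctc

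Psma2 encodes a subunit of the proteasome core, Rpl37a a protein of the large ribosomal subunit, Cox4i1 a subunit of cytochrome c oxidase, and Cabyr a calcium-binding protein of the sperm tail. The 9 capitalised CpGs of Psma2 averaged 2.26% in CSR and 6.09% in control. The 13 of Rpl37a averaged 0.590% in CSR and 2.87% in control, and the 19 of Cox4i1 averaged 1.92% in CSR and 0.178% in control. In Cabyr, 11 CpGs averaged 1.33% in CSR and 0.682% in control. All 4 runs stood under 10% in both groups. Dazl encodes an RNA-binding protein of germ cells, and its 3 capitalised CpGs averaged 34.7% in CSR and 32.7% in control. Its run holds 23 CpGs, of which these 3 met the coverage minimum in all libraries.

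The start tile of Cox4i1 (rn6 chr19:54245001-54246000, 19 measured CpGs, 303 to 1062 reads per library) stood at 0, 0, 0.263, 11.3, 0 and 0% in CSR libraries 1 to 6 and at 0, 0, 1.06, 0, 0 and 0% in control libraries 1 to 6. The 1 high value was that of CSR library 4, and the groups overlapped. At Rpl37a, the start tile (rn6 chr9:80002001-80003000, 14 CpGs, 182 to 530 reads) stood at 0.674, 0, 0, 2.44, 0.385 and 0.676% in CSR and at 13.3, 0.541, 0, 0, 0 and 3.58% in control. Here control library 1 was the high one. The tile of Cabyr (rn6 chr18:4084001-4085000, 12 CpGs, 167 to 708 reads) stood at 0, 4.87, 1.20, 0.971, 0.697 and 0% in CSR and at 1.22, 0, 0, 0, 0.847 and 2.70% in control. The tile of Psma2 (rn6 chr17:53102001-53103000, 16 CpGs, 215 to 520 reads) stood at 1.06, 2.66, 3.93, 4.26, 0.465 and 1.49% in CSR and at 0.538, 0, 0, 7.81, 0 and 18.9% in control. In each of the 4 tiles most libraries lay under 5%, and a different library held the highest level in each. The Dazl tile (rn6 chr9:12633001-12634000, 4 CpGs, 48 to 146 reads) stood at 9.21, 58.0, 42.9, 27.9, 26.4 and 44.5% in CSR and at 16.2, 51.4, 30.4, 38.5, 12.7 and 41.7% in control. No library of either group was near 0 there, and the groups overlapped over most of their range.

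Over all members the level was low in each library. The mean tile level was 2.35, 2.33, 2.17, 3.61, 1.64 and 1.71% in CSR libraries 1 to 6 and 2.25, 2.26, 1.70, 2.20, 1.59 and 3.05% in control libraries 1 to 6. CSR library 4 and control library 6 were the highest of their groups, and the groups overlapped. The group means (n = 6 each, with SD) were 2.30% ± 0.711 for CSR and 2.17% ± 0.520 for control. Their difference of 0.127 points is smaller than either SD, and as the members were chosen on the control levels, no p is given. Without CSR library 4 and control library 6 the difference was 0.0403 points, and with CSR libraries 2 and 3 summed it was 0.139 points. Its sign turned without CSR library 4 alone (-0.135 points) and without control libraries 3 and 5 (-0.138 points). It also turned when tiles were chosen by their CSR mean (-0.0762 points) in place of the control mean, and it was 0.0246 points when they were chosen by the mean of all 12 libraries.

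**Figure D1:**
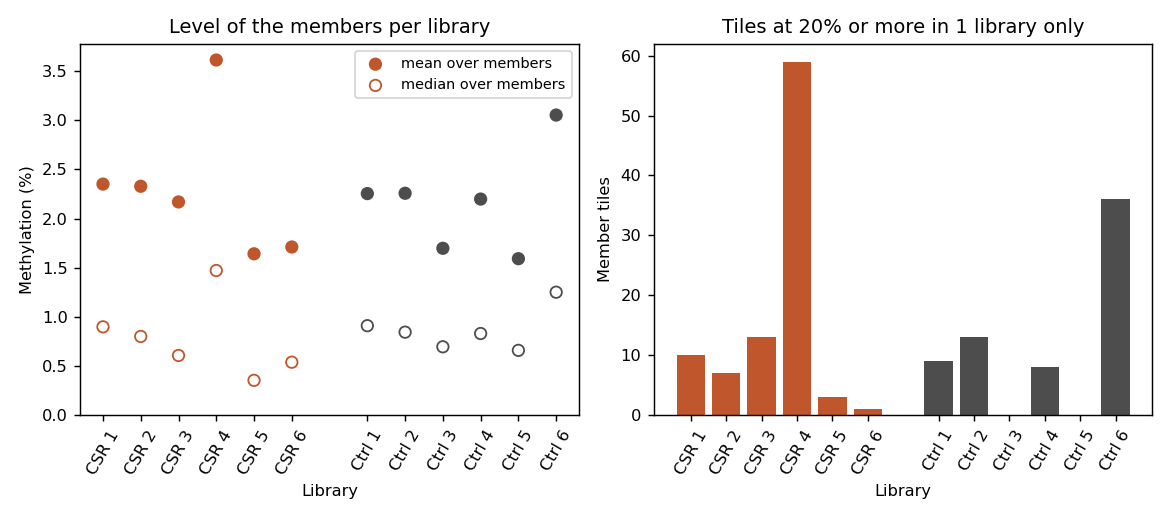
Left, methylation (%) of the 6198 members in each library, as the mean (filled) and median (open) over tiles; right, the number of members at 20% or more in that library only, while the median of the other 11 was under 2%. CSR libraries are orange and left, control libraries (Ctrl) grey and right; CSR 4 with 3.61% and 59 tiles and control 6 with 3.05% and 36 tiles stand highest.

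The same libraries stood highest in low tiles of other densities. In the 2956 tiles of 50 or more CpGs under 10%, CSR library 4 averaged 2.97% and control library 6 averaged 2.73%, against 0.941 to 1.83% in the other CSR libraries and 0.907 to 1.66% in the other control libraries. In the 3406 tiles of under 20 CpGs under 10%, CSR library 4 averaged 4.86% and control library 6 averaged 4.02%, again the highest of their groups. In the medium-density tiles between 10 and 90%, CSR library 4 was also the highest of its group (49.3%, the others 46.5 to 48.8%), while control library 6 (49.7%) lay below control library 4 (50.4%). In the 3389 medium-density tiles at 90% or more all 12 libraries lay between 94.4 and 95.1%, with CSR library 4 again first of its group and control library 6 next to control library 2.

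The share of members with no methylated read was 37.7% ± 4.73 in CSR and 31.3% ± 2.82 in control (n = 6 each, SD). The libraries behind these shares differed in depth, with a median of 266 ± 48.1 reads per member in CSR and 320 ± 50.7 in control, and a tile with fewer reads shows none methylated more often; the part of depth was not tested. The median over members, taken in each library, averaged 0.777% ± 0.391 in CSR and 0.864% ± 0.212 in control. When each member was first averaged over the libraries of a group, the median over members was 1.41% in CSR and 1.35% in control, so the direction depends on which median is taken. The median depth was 288 reads per member and library, so such levels rest on a few methylated reads. RRBS reads carry no molecular identifiers, and copies made by PCR count like separate molecules.

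Within the members the levels were skewed towards 0. In control, 2430 members lay under 1%, 1569 between 1 and 2%, 1455 between 2 and 5% and 744 between 5 and 10%. The median CSR level of these bands was 0.791, 1.26, 2.48 and 6.74%, in the same order, so the rank of the bands held in the libraries that the rule did not use. Only 22 members had no methylated read in any of the 12 libraries. The 134 members at 10% or more in CSR came mainly from the highest band, in which 617 of 744 (82.9%) stayed under 10%; in turn, 134 medium-density tiles at 10% or more in control were under 10% in CSR. The 3 members nearest the threshold averaged 9.99% each in control, and 10.8, 7.62 and 9.29% in CSR. The 3 tiles nearest above it averaged 10.02, 10.02 and 10.03% in control, and 8.99, 12.2 and 11.1% in CSR.

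**Figure D2:**
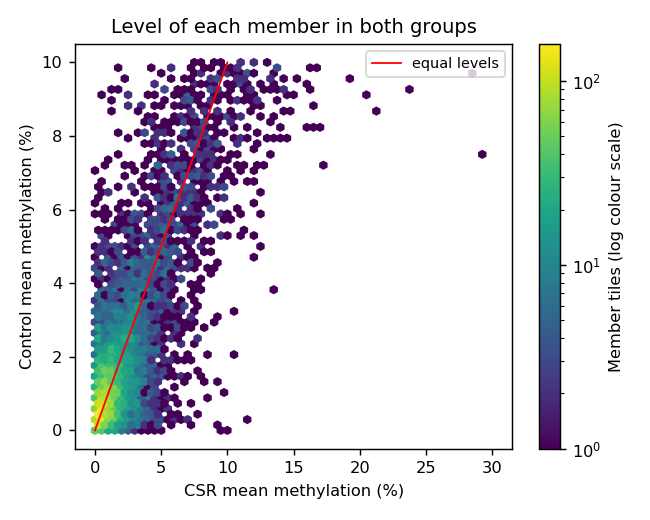
Mean methylation (%) of each of the 6198 members over the 6 CSR libraries (horizontal axis) and the 6 control libraries (vertical axis), with colour for the number of tiles on a log scale. Control levels end at 10% by the rule; the median of these group means over members is 1.41% in CSR and 1.35% in control, and the highest CSR level is 29.4%.

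CpG density ordered how often a tile was low. The share of low tiles was 21.3% at 20 to 24 CpGs, 38.1% at 25 to 29, 57.6% at 30 to 34, 73.1% at 35 to 39, 83.5% at 40 to 44 and 89.4% at 45 to 49. The share was higher at each step, while the share at 90% or more was 36.1% at the lowest step and 2.05% at the highest. Among the members, the median CSR level was 1.84% at 20 to 24 CpGs and 1.26% at 45 to 49. The share of medium-density tiles that were members also varied by chromosome, between 27.2% on chromosome 20 and 51.2% on chromosome 10. Density counts only CpGs that RRBS listed in at least 1 library, so it is a lower bound of the CpGs in the genome.

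**Figure D3:**
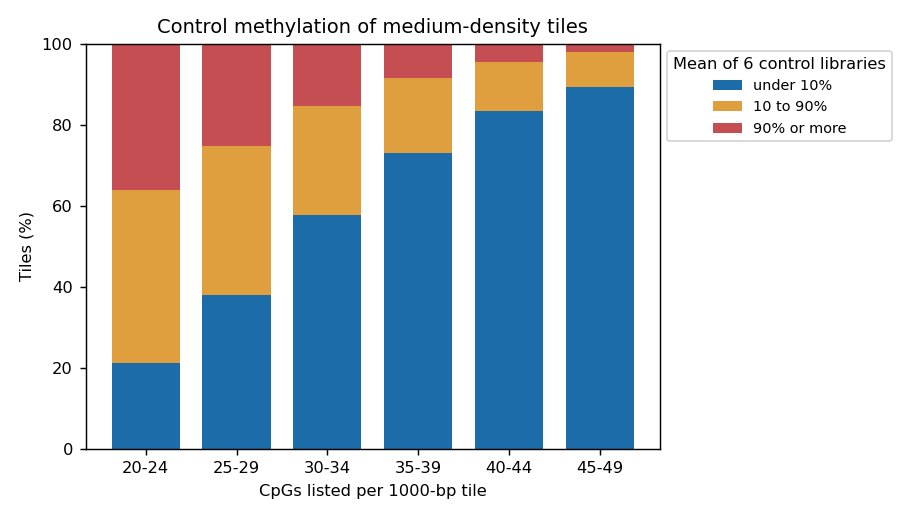
Share (%) of the 14223 medium-density tiles that are under 10%, between 10 and 90%, or at 90% or more in the mean of the 6 control libraries, by the number of CpGs listed per tile. The blue segments are the members; they make up 21.3% of the tiles at 20 to 24 CpGs and 89.4% at 45 to 49.

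Most CpGs of a member were low, which the rule nearly sets, as the control reads of these same CpGs chose the tile. Of the 57667 measured CpGs in members, 96.4% averaged under 10% in CSR and 3.58% lay between 10 and 50%. The share under 10% in CSR was 98.5% in denser low tiles and 90.7% in low tiles of under 20 CpGs. Only 20 CpGs, in 18 members, averaged 50% or more in CSR, and 18865 had no methylated read in any CSR library. The most CpGs at 50% or more over all 12 libraries in a member were 2, among 11 measured, in a pair of members. The tile rn6 chr3:7885001-7886000 stood at 9.35, 8.36, 19.7, 15.7, 9.12 and 16.0% in CSR and at 8.54, 9.47, 10.9, 8.07, 6.65 and 6.88% in control. CSR libraries 3, 4 and 6 lay above the control range there, and the other 3 within it. The tile rn6 chr3:150108001-150109000 averaged 13.3% ± 6.16 in CSR and 9.66% ± 4.41 in control (n = 6 each, SD).

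The comparison of CSR with control addressed whether sleep restriction changed methylation in these tiles. No member passed the test. The quasi-binomial model of methylated and unmethylated reads, fitted on all 94271 tiles with variable reads, called 0 of 6176 members (a call needs an adjusted p under 0.05 and 5 points or more), where it called 0% of all tiles; the smallest adjusted p among members was 0.759. At an unadjusted p under 0.05 there were 469 members (7.59%), against 6.16% of all tiles. Of these, 257 (4.16%) were higher in CSR, against 3.39% of all tiles, and 212 (3.43%) were lower, against 2.77%. limma on log ratios of reads also called 0 members, with 346 of 6176 (5.60%) at an unadjusted p under 0.05, against 5.08% of all tiles. The control values chose the members, so nothing is read from these counts about the members. The median difference was 0.0120 points over members and 0.141 points over all tiles.

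Differences in members were small in points. In 61.3% of members the group means differed by less than 1 point, and in 112 members (1.81%) by at least 5 points, against 11.2% of all tiles; with control levels under 10% by the rule, a member cannot be lower by more than that. Of the 112, 78 were higher and 34 lower in CSR. The 6 CSR levels lay wholly above the 6 control levels in 0 members, where 0.124% of all tiles did so, and wholly below in 6 members, where 0.0848% of all tiles did. Per CpG, the quasi-binomial model called 0 of 49638 CpGs in members (here a call needs 10 points or more), where it called 0.000317% of all CpGs, and 4319 (8.70%) had an unadjusted p under 0.05, against 7.32% of all.

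The members with the smallest p did not pass, and their values follow. The tile rn6 chr15:108608001-108609000, which holds the start of Clybl (a mitochondrial citramalyl-CoA lyase), stood at 6.05, 1.60, 6.19, 0.964, 4.60 and 0% in CSR and at 0, 0, 0.390, 0, 0 and 0.769% in control. Of the CSR libraries, 5 lay above all control libraries, and CSR library 6 was at 0. Group means were 3.23% ± 2.71 for CSR and 0.193% ± 0.322 for control (SD, n = 6 each; unadjusted p of the quasi-binomial model 0.000440, adjusted p 0.759). The tile rn6 chr6:109111001-109112000, with no placed gene, showed the widest gap of the 3 with the smallest p among tiles higher in CSR: 15.2, 22.4, 19.5, 14.4, 13.4 and 17.7% in CSR and 3.95, 14.3, 6.46, 0.758, 7.52 and 10.2% in control. Here only control library 2 reached the CSR range. The tile rn6 chr3:11424001-11425000 ranged from 1.01 to 6.25% in CSR and from 0 to 1.01% in control, so that the groups met at their edges.

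On the lower side, the tile rn6 chr1:220947001-220948000, with 14 CpGs and 302 to 831 reads, stood at 0.175, 0, 0.208, 0, 0.214 and 0% in CSR and at 4.18, 12.9, 1.22, 6.72, 1.32 and 15.8% in control. Its groups did not overlap, and the control libraries spread widely. The means were 0.0994% ± 0.110 in CSR and 7.03% ± 6.11 in control (n = 6 each, SD; unadjusted p of the quasi-binomial model 0.000943, adjusted p 0.759). It had the largest difference of the 6 members without overlap, and no gene start was placed in it. The tile rn6 chr2:188598001-188599000 ranged from 0 to 1.53% in CSR and from 1.35 to 4.38% in control, and the tile rn6 chr10:90266001-90267000 ranged from 0 to 0.780% in CSR and from 0.380 to 3.60% in control. Both overlapped at their edges. The tiles rn6 chr10:84214001-84215000 and rn6 chr17:72411001-72412000 were the next among those without overlap, with means of 0.0877 and 0.494% in CSR and 3.74 and 2.76% in control.

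The spread among libraries was set against binomial sampling of the reads. The variance among the 6 CSR libraries was 4.83 times that of binomial sampling in the median member with a methylated CSR read, 5.61 times in the denser low tiles and 4.20 times in the low tiles of under 20 CpGs. PCR copies inflate the read counts behind this sampling variance, so the ratios overstate the spread beyond true counting error, and nothing else is read from them. Some members were high in 1 library alone. In 159 members (2.57%), 1 library stood at 20% or more while the others had a median under 2% and none reached 20%. They counted 10, 7, 13, 59, 3 and 1 in CSR libraries 1 to 6 and 9, 13, 0, 8, 0 and 36 in control libraries 1 to 6. CSR library 4 and control library 6, the libraries with the highest mean levels, held the most. In the library concerned a median of 84.6% of the tile's measured CpGs reached 20%, and in 55 tiles all did, with a median of 159 reads. Of the denser low tiles, 132 showed the pattern, 39 of them in CSR library 4 and 39 in control library 6.

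The members with the largest SD over the CSR libraries included a tile of this kind. The start tile of Mtmr12 (a myotubularin-related protein without phosphatase activity; rn6 chr2:62236001-62237000, 17 CpGs) stood at 0.409, 2.35, 0.738, 64.7, 0.680 and 0% in CSR and at 1.19, 0, 0, 0.284, 0.170 and 0.496% in control. Only CSR library 4 was high. At Sptbn1, the start tile (beta-spectrin; rn6 chr14:114700001-114701000, 5 CpGs, 50 to 222 reads) stood at 5.77, 0, 0, 62.8, 0 and 0% in CSR and at 0, 2.15, 0, 0, 0 and 56.4% in control. It was high in 1 library of each group, the same libraries as above. In the tile rn6 chr4:179179001-179180000, with 5 CpGs and no placed gene, the CSR libraries stood at 17.9, 18.5, 80.0, 32.1, 23.1 and 4.55% and the control libraries at 7.26, 11.7, 7.35, 7.39, 11.2 and 0%. CSR library 3 alone reached 80.0%, and the adjusted p was 0.794.

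The members with the most measured CpGs stood at 10.8% or less in every library. The start tile of Sp8 (a zinc finger factor of limb and brain development; rn6 chr6:146784001-146785000) had 40 CpGs and averaged 3.59% ± 4.64 in CSR and 1.36% ± 1.58 in control. At Usp32, the start tile (of a ubiquitin protease; rn6 chr10:72450001-72451000) had 40 CpGs and averaged 1.73% ± 2.17 in CSR and 1.21% ± 1.54 in control. At Celf5, the start tile (of an RNA-binding protein; rn6 chr7:11095001-11096000) had 38 CpGs and averaged 1.42% ± 1.27 in CSR and 2.04% ± 1.74 in control (n = 6 each, SD). At Usp32 and Celf5 the difference was smaller than both SDs, and at Sp8 the difference of 2.23 points was smaller than the CSR SD and larger than the control SD.

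Runs of adjacent members were mostly 1 tile long, but most tiles next to members were not tested. The 6198 members formed 5574 runs, of which 5013 were 1 tile long. The longest run had 6 tiles (rn6 chr12:17176001-17182000, 61 measured CpGs) and averaged 3.62% in CSR and 3.37% in control. The 3 runs of 5 tiles, at rn6 chr2:233616001-233621000, chr6:119519001-119524000 and chr18:59830001-59835000, averaged 1.87, 0.969 and 1.35% in CSR and 1.95, 0.756 and 0.904% in control. RRBS reads only parts of the genome: 9140 of the 12396 tiles adjacent to members were not tested, so a run can end for want of reads. In 3318 members no neighbour was tested, and no isolation is read from the runs. Most tested neighbours were low too: 1248 were members, 759 were denser low tiles and 582 were low tiles of under 20 CpGs. Among the rest, 4 medium-density and 72 sparser tiles stood at 90% or more.

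Methylation was higher farther from a member. At 1 tile, the neighbours that were not themselves members averaged 16.2% ± 0.664 in CSR and 16.4% ± 0.660 in control. At 2 tiles they averaged 44.7% in CSR and 44.9% in control, at 3 tiles 55.3% in CSR and 55.4% in control, and at 5 tiles 64.2% in CSR and 64.0% in control. From there to 10 tiles the levels lay between 63.2 and 68.3% in CSR. The profiles of the groups ran within their SDs of each other.

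**Figure D4:**
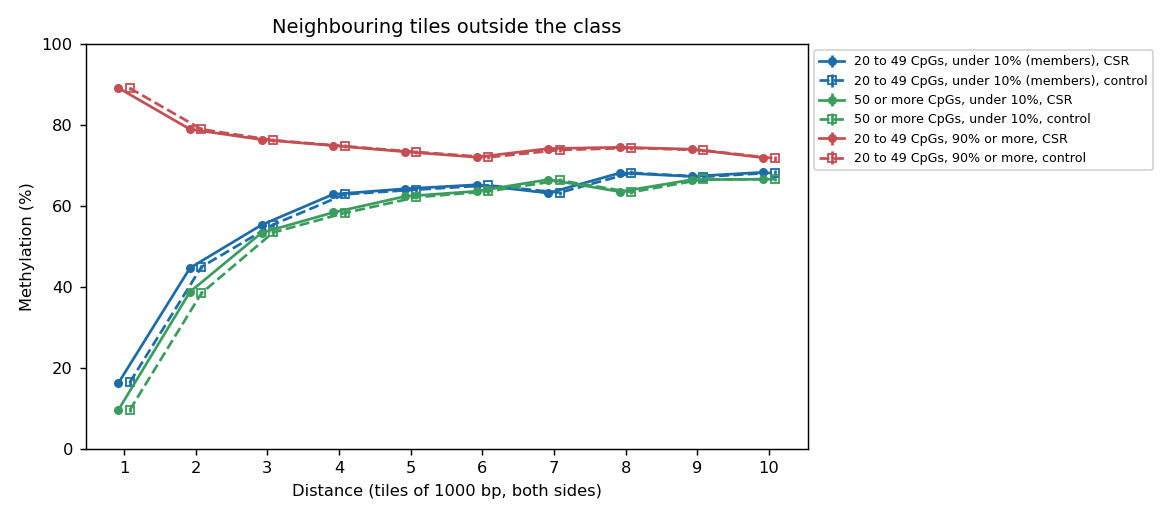
Mean methylation (%) of tested tiles at 1 to 10 tiles (of 1000 bp) from members (blue), from low tiles of 50 or more CpGs (green) and from medium-density tiles at 90% or more (red), leaving out tiles of the same class, in CSR (solid) and control (dashed). Error bars, SD over 6 libraries, are mostly smaller than the symbols; the flank of members stands at 16.2% at 1 tile and 44.7% at 2 tiles in CSR, that of the red class at 89.2 and 78.9%.

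Over 1 to 5 tiles the flank of members averaged 43.0%, and that of denser low tiles 34.5%, over the 12 libraries. The difference was 8.53 points ± 0.144 (SD over 12 libraries). The flank of each class leaves out its own tiles, so the flank of denser tiles keeps members, which are low by the rule, and that of members does not. All 12 libraries also read the same tiles, the control libraries among them chose the classes, and the exact sign-flip test planned over the libraries is therefore void and its p is not given. The difference was 2.71 points when the flank was limited to tiles of under 20 CpGs, which holds tiles of neither class, and 1.10 points at 6 to 10 tiles. Against low tiles of under 20 CpGs, whose flank averaged 37.1%, the difference was 5.89 points, but it turned to -16.7 points with flank tiles of under 20 CpGs only. In that setting all low neighbours of the sparser class are left out as its own members, so the reversal follows from the construction, and no order between these classes is read from it.

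Placed gene starts were more frequent in members than in other tiles of 20 to 49 CpGs, a description with no test. Members tend to be the denser of these tiles: they were 21.3% of tiles at 20 to 24 CpGs and 89.4% at 45 to 49. Placing a start needs listed CpGs, and the part of density was not tested. Of the promoters in the RefSeq table, 8402 of 33469 could be placed, and 8367 of them (99.6%) fell on the chromosome of their gene. This share is no independent check, as the minimum of 10 CpGs was set once it had been seen. With the CpG spacing mirrored, 486 were placed, and 82.9% of these fell on the chromosome of their gene. In tested tiles of chromosomes 1 to 20 there were 3801 placed starts, of which 46.4% lay in members. A placed start lay in 1572 members (25.4%), in 3.00% of the medium-density tiles between 10 and 90%, in 0.266% of those at 90% or more, and in 48.2% of the denser low tiles. Placing needs at least 10 listed CpGs in a promoter, which bounds these shares from below and favours CpG-rich promoters. In 188 members, starts on both strands shared a tile. With at least 15 listed CpGs, 1264 in place of 1763 starts remained in members.

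Members with a placed start were somewhat denser and lower than those without. The median density was 37 CpGs with a start and 31 without. The median level was 1.12% in CSR and 1.06% in control with a start, and 1.55% in CSR and 1.47% in control without. Placing a start needs at least 10 listed CpGs in a promoter, so the higher density follows largely from the method. Control levels also chose the members, and the part of density in the lower level was not tested. Of the tested start tiles, 121 of 1565 (7.73%) had an unadjusted p under 0.05, against 7.59% of all members; 66 were higher and 55 lower in CSR.

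Methylation was low at these starts and higher farther from them. Their tiles were chosen for low control levels, so the low level near the start follows largely from the rule and is not a result. In the 250 bp before the start, CpGs averaged 1.37% ± 0.813 in CSR and 1.31% ± 0.643 in control, and in the 250 bp after it 1.35% in CSR and 1.30% in control. Between 750 and 1000 bp the levels were 12.8% before and 10.6% after the start in CSR, and 13.1% before and 10.7% after it in control. Between 1500 and 1750 bp they were 35.3% before and 39.2% after the start in CSR, and 35.3% before and 39.0% after it in control. At denser low start tiles the level between 750 and 1000 bp before the start was 5.37% in CSR and 5.28% in control, lower than at members; that difference was not tested. At starts in medium-density tiles of intermediate control level, CpGs in the 250 bp before the start averaged 25.6% in CSR and 25.9% in control. Control levels chose that class too. Each point pools different promoters, as RRBS rarely covers a promoter over its whole width.

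**Figure D5:**
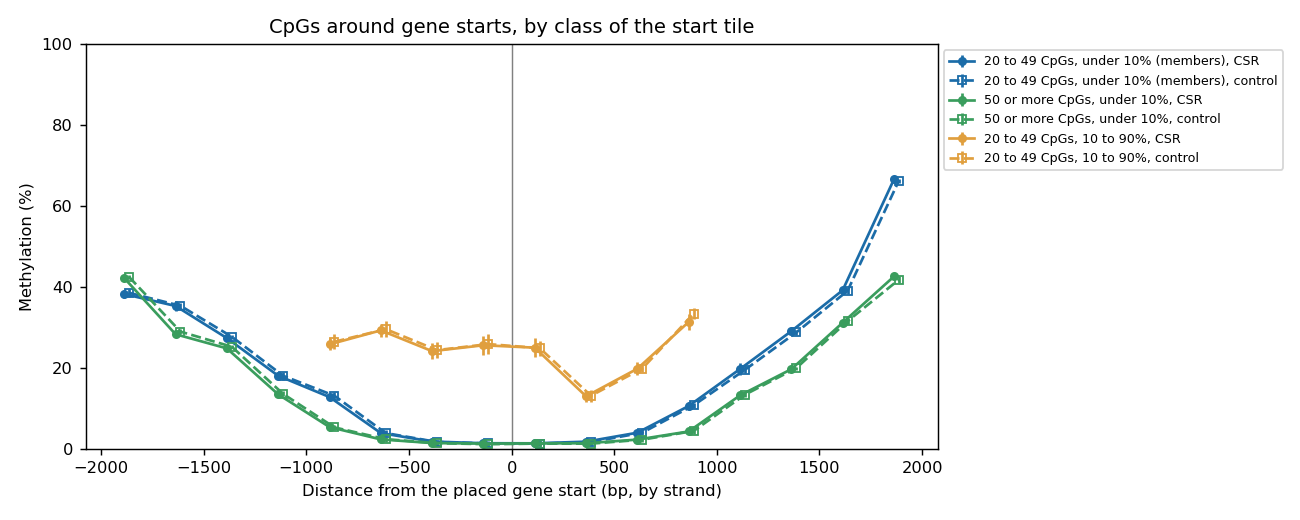
Mean methylation (%) of CpGs by distance (bp, in steps of 250) from placed gene starts that lie in members (blue), denser low tiles (green) and medium-density tiles between 10 and 90% (orange), in CSR (solid) and control (dashed), for steps with at least 50 CpGs. Error bars are SD over 6 libraries; member starts sit near 1.37% in CSR at the start and pass 35% on both sides beyond 1500 bp.

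The promoters in members had a composition between those of denser low tiles and of the whole table. Over 300 bases (250 before to 50 after the start) their median GC content was 61.3%, with 22 CpGs and an observed-to-expected CpG ratio of 0.803. Promoters in denser low tiles had 67.0% GC, 29 CpGs and a ratio of 0.883, and all promoters in the table had 51.7% GC, 7 CpGs and 0.392. The classes were cut by CpG density, and placing a promoter needs at least 10 listed CpGs in it. This order in CpG content therefore follows largely from the construction and is not a result. Motifs were searched on both strands, and the shares follow for promoters in members, in denser low tiles, in low tiles of under 20 CpGs (152 promoters), in medium-density tiles between 10 and 90% (143 promoters) and in the whole table. The GC box GGGCGG was found in 68.0, 78.8, 52.0, 54.5 and 33.1%, in that order. The ETS motif CCGGAAG, which contains the MspI site, was found in 25.7, 15.9, 28.9, 17.5 and 8.75%, so its share in members lay between those of the other low classes. The cAMP response element TGACGTCA was found in 3.97, 3.34, 3.29, 3.50 and 1.83%. The E box CACGTG was found in 10.4, 10.2, 11.8, 13.99 and 6.42%. Here members stood below the sparser low class and the class between 10 and 90%. The CCAAT box CCAAT was found in 37.9, 34.6, 45.4, 29.4 and 37.5%, and the TATA box TATAAA in 5.62, 4.31, 9.87, 6.29 and 14.2%. These shares were not tested. GC-rich motifs are found more often in GC-rich sequence, and a match is a description of the letters, not of binding.

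Genes used by all cells lay mostly in members and in denser low tiles, and so did placed starts as a whole. For 13 of 14 proteasome subunits with a start in a tested tile, that tile was a member, for 14 of 24 cytosolic ribosomal proteins, and for 14 of 22 subunits of oxidative phosphorylation, beside 46.4% of all placed starts. Denser low tiles held 1 of the proteasome, 9 of the ribosomal and 4 of the oxidative phosphorylation starts, beside 43.4% of all placed starts. Low tiles of under 20 CpGs held 1 of the ribosomal and 4 of the oxidative phosphorylation starts. The 13 proteasome tiles lay between 0.433 and 4.47% in CSR and between 0.233 and 4.54% in control. The 14 ribosomal tiles lay between 0 and 5.64% in CSR, the highest being Rpl41 in a tile of 12 CpGs, and between 0.153 and 4.69% in control. The 14 oxidative phosphorylation tiles lay between 0 and 4.55% in CSR and between 0.177 and 2.90% in control. Rps28 and Ndufa7 share 1 of these tiles. Their median difference was 0.197 points for proteasome tiles, 0.104 for ribosomal tiles and 0.655 for oxidative phosphorylation tiles, beside 0.0120 over all members. Among these, 1 tile, that of Cox7a2 (a small subunit of cytochrome c oxidase), had an unadjusted p under 0.05, with 0% in all 6 CSR libraries and 0.591% ± 0.605 in control.

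Genes of spermatids and sperm also lay mostly in members and in denser low tiles. These classes held 46.4 and 43.4% of all placed starts. Of 12 spermatid and sperm genes with a start in a tested tile, 5 lay in members and 6 in denser low tiles. The 5 were Cabyr, Cfap43 and Dnai2 (parts of the ciliary or flagellar apparatus), Dpy19l2 (a nuclear membrane protein needed for the acrosome) and Spata6 (a protein of the sperm neck), and they lay between 0.467 and 2.35% in CSR and between 0.794 and 1.97% in control. Of 6 genes of germ line and meiosis only Ccna1, the cyclin of male meiosis, lay in a member, with 6.71% ± 4.05 in CSR and 5.64% ± 2.17 in control. Dazl, Piwil1 (a piRNA-binding protein) and Tex14 (a protein of the bridges between germ cells) lay in medium-density tiles outside the members, at 34.8, 17.4 and 20.8% in CSR and 31.8, 10.1 and 23.0% in control. None of these genes in members had an unadjusted p under 0.05. Outside the members, Dnai1 (a dynein chain of cilia and flagella), in a denser low tile, averaged 4.52% in CSR and 0.255% in control (unadjusted p of the quasi-binomial model 0.00796, adjusted p 0.759).

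Developmental regulators had 7 of 18 starts in members and 11 in denser low tiles. The 7 were Gata2, Hoxd3, Nkx1-2, Nkx2-2, Pax7, Six4 and Tbx1, transcription factors of blood, axial, neural, muscle and pharyngeal development. Tbx1 averaged 2.32% ± 3.85 in CSR and 8.77% ± 4.68 in control, and Gata2 averaged 0.627% ± 1.01 in CSR and 3.82% ± 1.68 in control (n = 6 each, SD). Both had an unadjusted p under 0.05 in the quasi-binomial model (0.0404 for Tbx1 and 0.0178 for Gata2), as had 7.59% of members and 6.16% of all tiles. Neither passed adjustment over all tiles. The median difference of the 7 was -2.07 points, beside 0.0120 over all members. It is the difference at Nkx2-2, where control library 2 stood at 19.4% and the other control libraries between 0 and 3.94%. Gata2, Hoxd3, Nkx2-2 and Tbx1 were lower in CSR. Nkx1-2, Pax7 and Six4 were higher in CSR, by 1.00, 0.148 and 0.311 points.

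Of the smaller lists, imprinted genes had 4 of 6 tested starts in members: Igf2 (a fetal growth factor), Ndn (necdin), Inpp5f (an inositol phosphatase) and Ube3a (a ubiquitin ligase), between 0 and 4.28% in CSR and between 0.814 and 4.14% in control. Ube3a stood at 0% in all CSR libraries and at 1.01% ± 1.88 in control (SD, n = 6; unadjusted p of the quasi-binomial model 0.0439). Clock genes had 1 of 8, Nr1d1 (a nuclear receptor of the clock), at 2.45% ± 4.35 in CSR and 3.63% ± 5.68 in control. Stress and glucocorticoid genes had 3 of 8, Cat, Nfe2l2 and Prdx1 of the oxidative stress response. Their means lay between 0.942 and 1.65% in CSR and between 0 and 0.124% in control, but the libraries of the groups overlapped at each. Most CSR libraries stood at 0%, and the highest were library 5 at Cat (9.14%), 4 at Nfe2l2 (4.65%) and 1 at Prdx1 (6.11%). Nfe2l2 and Prdx1 rest on 3 CpGs each, with as few as 30 reads in a library. The DNA methylation machinery had 1 of 5, Mbd1 (a reader of methylated CpGs), at 1.91% in CSR and 0.439% in control, and Leydig cell genes had 1 of 2, Srd5a1 (a steroid reductase), at 0.255% in CSR and 1.29% in control. Sertoli cell genes had 0 of 1, and of olfactory receptors none was placed. In all lists together, 6 of 64 genes in members (9.38%) had an unadjusted p under 0.05, against 7.59% of members and 6.16% of all tiles, and none passed adjustment.

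Genes that start in members had median RNA levels between 4.53 and 5.01 FPKM per library. Of 1756 such genes, 798 (45.4%) were in the RNA table, which holds a selected set of transcripts. Their median was 5.01, 4.79 and 4.53 FPKM in CSR RNA libraries 1 to 3 and 4.87, 4.997 and 4.88 FPKM in control RNA libraries 1 to 3. Over all 6679 genes of the table the medians were 4.20, 4.18 and 3.94 FPKM in CSR and 4.09, 4.26 and 4.08 FPKM in control. The member genes lay above this in all 6 libraries, and the 737 genes that start in denser low tiles lay between 4.50 and 4.80 FPKM in CSR and between 4.44 and 4.89 FPKM in control. The 40 genes that start in medium-density tiles between 10 and 90% had medians of 5.60, 3.45 and 5.60 FPKM in CSR and 5.67, 7.41 and 6.30 FPKM in control, above those of the member genes in all libraries but CSR 2. Cox4i1 lay between 64.9 and 71.5 FPKM in CSR and between 67.0 and 73.0 FPKM in control, Psma2 between 11.6 and 13.9 FPKM in CSR and between 12.8 and 13.9 FPKM in control, and Cabyr between 22.9 and 32.5 FPKM in CSR and between 16.8 and 30.0 FPKM in control. Dazl, 1 gene of the class between 10 and 90%, was below the medians of that class. It lay between 0.879 and 2.22 FPKM in CSR and between 0 and 0.699 FPKM in control.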

How the data were processed

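RRBS and poly(A) RNA libraries were grouped by their labels. The deposited methylation tables hold a read count (coverage) per CpG cytosine and the percentages of reads showing C and T there, per the file headers. Per the submitters' processing notes, the tools were Trim Galore, Bismark and SAMtools for methylation and Trimmomatic, HISAT2 and StringTie for the deposited FPKM values, on build rn6, with versions and settings not given. The lowest listed coverage was 5 reads. Libraries held between 46257452 and 68940379 reads at CpGs.

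Strands were summed, and methylated reads computed as coverage times percent. The 650667 CpGs read at least 10 times in each library were pooled per tile of 1000 bp, and 94328 tiles held at least 3. Tiles and CpGs were tested by a quasi-binomial logistic model (Python 3.11.15, scipy 1.17.1), its dispersion moderated by squeezeVar of limma 3.58.1 (R 4.3.3), with Benjamini-Hochberg adjustment over all tested; without variable reads there is no p. limma on log2 ratios had 0.5 reads added.

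Members and lists were chosen with earlier results of these data known. Named tiles are the 3 with the smallest p in each direction, the most measured CpGs, the largest SD over CSR libraries, the longest runs, those nearest the threshold, those with the most CpGs at 50% or more, and those without overlap between groups. The plan was to name no gene without an rn6 annotation. After the files were seen, RefSeq promoters (GRCr8) were instead placed on rn6 CpGs by spacing, with at least 10 matched CpGs and at most 1 listed CpG unmatched; that minimum was raised once chromosome agreement had been seen, so the agreement is no independent check. No coordinates were converted. Gene lists, motifs, the start profile, RNA levels (FPKM summed per symbol) and tiles high in 1 library were also added then. Alternatives were coverage of 5 or 20 reads, a coverage maximum, 5 CpGs per tile, other thresholds, member rules and flanks, shifted bins, no moderation, limma, a replicate block, and left-out libraries.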

Additional observations from a re-analysis of the deposited data

Results flagged for a closer look

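Of 58 groups of 6 libraries examined, 18 had a highest library set apart from the other 5 by more than Dixon's 95% limit. The nominal rate of 5% would give about 2.9, but it holds for independent groups of normal values. These levels are skewed with many at 0, and the groups share libraries, so 18 is not read against 2.9. Tiles named for their large spread are also among the groups, which raises the number. Among CSR libraries, library 4 stood apart in the mean level of members (3.61%, the others 1.64 to 2.35%) and in the number of members high in 1 library alone (59 tiles, the others 1 to 13). It also stood apart in the tile rn6 chr2:62236001-62237000 of Mtmr12 (64.7%, the others at most 2.35%), in chr14:114700001-114701000 of Sptbn1 (62.8%, the others at most 5.77%), and in the start tiles of Rpl37a (2.44%) and Cox4i1 (11.3%). CSR library 2 stood apart at the start tiles of Celf5 (3.92%) and Cabyr (4.87%), CSR library 3 in chr4:179179001-179180000 (80.0%, the others 4.55 to 32.1%), and CSR library 5 in chr10:84214001-84215000 (0.526%, the others 0%).

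Among control libraries, library 6 stood apart in the number of members high in 1 library alone (36 tiles, the others 0 to 13), in the Sptbn1 tile (56.4%, the others at most 2.15%) and in the Usp32 tile (4.17%). Control library 1 stood apart in chr3:11424001-11425000 (1.01%), in the Sp8 tile (4.53%) and in the Rpl37a tile (13.3%). Control library 4 stood apart in the Celf5 tile (5.36%), and control library 3 in the Cox4i1 tile (1.06%, the others 0%).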

How the results depend on the processing

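No member was called under any alternative in which the tile test was run, including those that leave out 1 library. With shifted bins, members were only counted and the test was not run. The same holds where density counted only CpGs listed in 6 or more libraries, and where reads were pooled over all listed CpGs. The number of members was 2642 with at least 20 reads per CpG, and 2590 of them were under 10% in CSR. Members at an unadjusted p under 0.05 numbered 722 with at least 5 reads and 195 with at least 20, and 440 to 492 when 1 library was left out. The members' level was 1.48% in control with a threshold of 5%, and 4.23% in CSR and 4.02% in control with 20%. When 1 library was left out, the level ran from 2.04 to 2.43% in CSR and from 2.00 to 2.29% in control, and their difference from -0.135 to 0.303 points; it was -0.0762 points with tiles chosen by the CSR mean. Over all tiles, 1 tile was called without CSR library 4 and control library 6 and 0 to 3 tiles when 1 library was left out. The flank difference to low tiles of under 20 CpGs turned to -16.7 points with flank tiles of under 20 CpGs only. When 1 library was left out, the flank differences ran from 8.51 to 8.55 points and from 5.86 to 5.90 points, and 0 CpGs in members were called. Replicate numbers did not pair the libraries: over members, same-numbered libraries correlated at -0.0820 to 0.0451, and only number 1 correlated best with its own number. With the replicate block, 897 members (14.5%) had an unadjusted p under 0.05, against 7.83% of all tiles, and 3 tiles of all were called. The block called 99 CpGs in members (0.199% of 49638), against 0.427% of all 631873 CpGs; the cause was not tested. Depth limits levels under about 1%, where a tile holds few methylated reads.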
